A study of Mus musculus with 12 samples.

Results

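Min6 cells, a mouse beta cell line, were kept for 48 h with 2 compounds, alone or together, and the question here is where the effect of the pair differed from the sum of the single effects. All 12 libraries of the series enter this comparison. They form 4 groups of 3: DMSO, which is the solvent control, 1 µM of the FoxO1 inhibitor AS1842856 (FoxOi), 5 µM loperamide (Loperamide), and 1 µM FoxOi with 5 µM loperamide (FoxOi_Loperamide). For each gene the interaction is the loperamide effect in the presence of FoxOi minus the loperamide effect in its absence, on the log2 scale, that is (FoxOi_Loperamide minus FoxOi) minus (Loperamide minus DMSO). Of the 55487 genes counted, 16808 passed the filter on low counts and were tested. The interaction was called for 1594 of them (9.48%) at a Benjamini-Hochberg adjusted p under 0.05 in edgeR's quasi-likelihood test, 616 with a positive value (3.66%) and 978 with a negative one (5.82%). This balance depended on single libraries: without DMSO replicate 3 there were 957 positive and 937 negative genes, and without DMSO replicate 2 there were 485 and 597.

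An interaction of 0 means that the fold changes of the 2 compounds multiply. The names of the classes used here describe only the order of the group levels: a gene with a called interaction is called synergistic where the combination is the highest or the lowest of the 4 groups in the direction of the interaction, and antagonised otherwise. A synergistic gene can therefore also be one in which a compound undid the effect of the other. FoxO1 is a transcription factor that insulin signalling drives out of the nucleus, and in beta cells it is known for its part in the response to metabolic stress and in keeping the cells differentiated. Loperamide is an opioid receptor agonist that is given against diarrhoea and that also blocks calcium channels. Min6 cells come from an insulinoma of mice that carry a viral T antigen under the insulin promoter, so they divide continuously, unlike most beta cells in an adult islet.

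The libraries held 10640485 (Loperamide replicate 1) to 19499216 (FoxOi replicate 3) counts. Separate cultures are not stated for the 3 libraries of a group, so p-values measure the spread between these libraries. The replicate number was not a term of the main fit, and with it as a block 4334 genes were called. Gene positions are those of the deposited files on GRCm38. Levels are given per 1000000 counts of the scaled library (CPM), the 3 libraries of a group in the order of their replicate numbers, and changes as log2 differences ± SE. The 10 beta cell markers checked were present in DMSO, with Ins2 at 46622 ± 9625 CPM (SD, n = 3) and Iapp at 18254 ± 1453 CPM (SD, n = 3). Of the markers of other cell types, the 11 acinar genes summed to at most 6.20 CPM in a library, with 5 of them at 0 in all 12, and the 11 fibroblast and endothelial genes to at most 5.22 CPM. Other lists were abundant and differed between groups. The 13 alpha cell genes summed to 6100.5 to 7143 CPM in DMSO, 3629 to 4328 with FoxOi, 2365 to 2836 with loperamide and 2664 to 2834 with both, and the 12 neuronal genes to 1574 to 1662, 1118 to 1182, 1287 to 1349.7 and 1049 to 1115 CPM in the same order. The 8 ductal genes, which include Spp1, summed to 257 to 347 CPM in DMSO, 317 to 369.6 with FoxOi, 168 to 229 with loperamide and 120.1 to 174 with both. The part of any of these in the results below was not tested. The 14 macrophage and leukocyte genes summed to 38.2 to 60.1 CPM in DMSO, 32.0 to 39.1 with FoxOi, 19.8 to 24.2 with loperamide and 11.2 to 13.6 with both, with C1qb and Tyrobp at 0 in all 12. In bulk RNA, fewer cells of a type and less RNA per cell cannot be told apart.

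More called genes fell in the antagonised than in the synergistic classes. With the combination's fitted level set against the other 3 groups, 596 called genes had a rise that was antagonised (a negative interaction without the combination being lowest) and 397 a fall that was antagonised (a positive interaction without the combination being highest). These classes hold 3.55% and 2.36% of the genes tested. A synergistic rise, with the combination highest of the 4 groups, was seen for 219 genes (1.3%), and a synergistic fall, with the combination lowest, for 382 (2.27%). The interaction and the single effects share the DMSO libraries, so these shares are a description. The class sizes moved with single libraries: without DMSO replicate 2 there were 365 antagonised rises and 232 synergistic falls, and without DMSO replicate 3 there were 634 antagonised falls. Of the antagonised rises, 477 were raised by both single compounds in the fitted levels, and for 307 both rises were called. Of the antagonised falls, 326 were lowered by both, and for 216 both falls were called.

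The class of a synergistic gene alone does not show that the combination passed DMSO. In 141 of the 219 synergistic rises and 257 of the 382 synergistic falls, a single compound was called in the opposite direction, and in 77 and 120 of these the combination was not called against DMSO. When the combination had also to be called against DMSO (45.5% of all genes were) and against each single compound, 80 of the 219 rises and 187 of the 382 falls were left. Among those 80 rises, 34 had neither single compound called against DMSO, 22 had a single compound called in the same direction and none opposite, and 24 had one called in the opposite direction. The corresponding numbers for the 187 falls were 55, 52 and 80. The combination lay outside all 9 other libraries in 352 of the 1594 called genes (22.1%) and in 1932 of all genes tested (11.5%); the called genes were chosen on these libraries, so the share is a description. On the linear scale, where single differences in CPM are added instead of multiplied, 1576 of the 1594 deviations (98.9%) had the same sign.

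**Figure D1:**
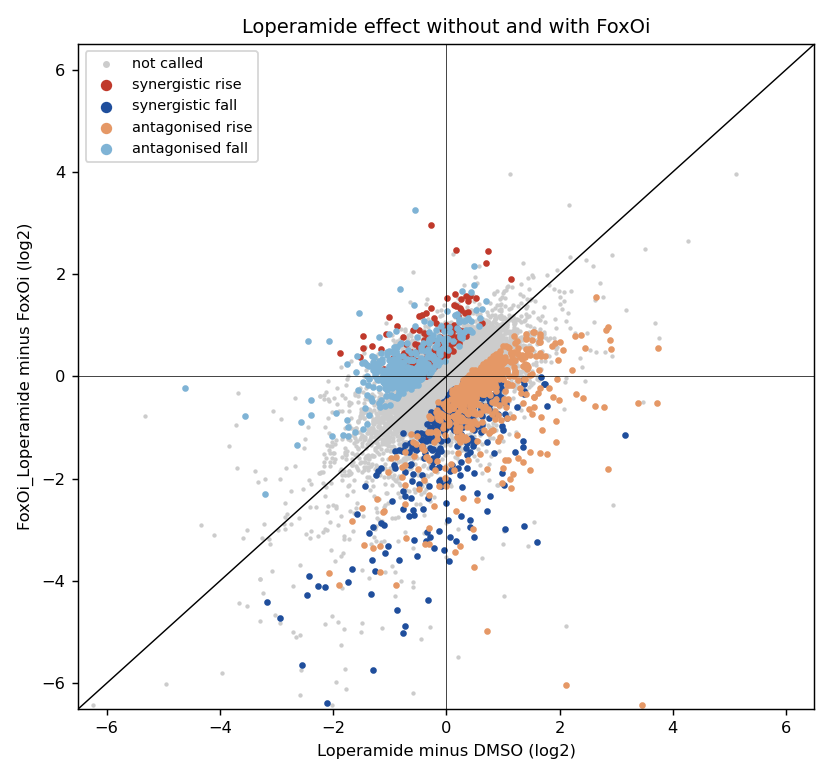
Each point is 1 of the genes tested, placed by its loperamide effect in the absence of FoxOi (x axis, log2) and in its presence (y axis, log2); the diagonal marks no interaction, colours mark the 4 classes, and 6 genes lie outside the axes at 6.5. The 195 genes called with opposite signs in the 2 effects lie to the upper left and the lower right of the origin.

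Loperamide changed different numbers of genes in the 2 settings. It was called for 5370 genes against DMSO (31.9%) and for 4465 against FoxOi (26.6%), with 2314 called in the same direction in both. Across the 16808 genes the 2 effects, which share no library, had a Pearson r of 0.52 and a Spearman rho of 0.50 (genes are not independent replicates). FoxOi was called for 6881 genes against DMSO (40.9%) and for 6541 against loperamide (38.9%), with 3998 in the same direction and an r of 0.65. The scatter of loperamide effects shows 195 genes (1.16%) whose loperamide effect was called in both settings with opposite signs, 127 of them up alone and down with FoxOi, and 68 the reverse, and 125 in all without DMSO replicate 2 or FoxOi_Loperamide replicate 2. The FoxOi effect changed sign in this way for 225 genes (1.34%), and 61 genes did both. The interaction was called in every one of these genes, which the choice of called effects with opposite signs makes nearly certain.

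Klhdc8a and Tgfb1 had the smallest adjusted p among the synergistic falls. Klhdc8a (ENSMUSG00000042115, chr1:132298626-132307357, plus strand), a gene for a kelch-domain protein, was at 23.8, 23.2 and 21.5 CPM in DMSO, 27.2, 28.3 and 24.2 with FoxOi, 19.4, 24.0 and 19.0 with loperamide and 3.21, 3.06 and 3.48 with both. All 3 combination libraries lay far below the other 9. Neither compound alone was called, at 0.22 ± 0.11 (adjusted p = 0.129) for FoxOi and -0.14 ± 0.11 (adjusted p = 0.387) for loperamide, while both together lowered it by 2.81 ± 0.13 (adjusted p = 1.28e-09), which gives an interaction of -2.89 ± 0.17 (adjusted p = 6.84e-07). Sgsm1 (ENSMUSG00000042216), which encodes a regulator of small G proteins, behaved alike: it was at 68.8, 61.0 and 68.02 CPM in DMSO, 59.2, 58.0 and 60.3 with FoxOi, 72.6, 72.7 and 79.2 with loperamide and 23.8, 21.4 and 24.0 with both. The combination stood apart from all 9 other libraries here too, and the interaction was -1.54 ± 0.12 (adjusted p = 7e-06). Susd4 (ENSMUSG00000038576), a gene for a membrane protein that inhibits complement, had an interaction of -1.15 ± 0.15 (adjusted p = 0.000258). These 3 are among 96 genes (0.571%) called in the interaction and with both compounds against DMSO but with neither alone, 58 of which fell and 38 rose. A missed call with 1 compound does not show that the compound had no effect.

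Tgfb1 (ENSMUSG00000002603, chr7:25687002-25705077, plus strand), which encodes the cytokine transforming growth factor beta, was raised by each compound and lowered by the pair. It was at 40.5, 39.95 and 42.2 CPM in DMSO, 78.1, 81.5 and 78.8 with FoxOi, 59.6, 55.1 and 57.0 with loperamide and 21.5, 17.8 and 24.6 with both. The 4 groups did not overlap, with the single compounds above DMSO and the combination below it. FoxOi raised Tgfb1 by 0.96 ± 0.10 and loperamide by 0.49 ± 0.10, the combination lay at -0.94 ± 0.10 (adjusted p = 4.08e-06) against DMSO, and the interaction was -2.38 ± 0.14 (adjusted p = 6.84e-07). The product of the single effects would have put the combination at 111 CPM, and its mean was 21.3 CPM. Neurl3 (ENSMUSG00000047180), a gene for a ubiquitin ligase, followed the same order at a lower level, with 2.43, 2.43 and 2.93 CPM in DMSO, 8.71, 8.57 and 9.63 with FoxOi, 7.08, 7.45 and 5.61 with loperamide and 1.41, 0.625 and 1.46 with both, and an interaction of -4.29 ± 0.31 (adjusted p = 4.29e-06). Kcnh2 (ENSMUSG00000038319), which encodes the potassium channel of the cardiac repolarising current, was raised by each compound as well, and with both lay at -0.28 ± 0.10 (adjusted p = 0.0369) against DMSO. Its interaction was -1.40 ± 0.14 (adjusted p = 3.86e-05).

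Wipi1 (ENSMUSG00000041895, chr11:109573331-109611967, minus strand), an early factor in autophagosome formation, was at 307, 314 and 394 CPM in DMSO, 255, 282 and 282 with FoxOi, 136, 153 and 182 with loperamide and 35.6, 32.2 and 40.9 with both. The combination lay below every other library, and the loperamide libraries below those of DMSO and FoxOi. Loperamide alone lowered Wipi1 by 1.11 ± 0.12 (adjusted p = 1.21e-05), FoxOi alone was at -0.31 ± 0.12 (adjusted p = 0.055), and with both it lay at -3.22 ± 0.14 (adjusted p = 5.33e-10), an interaction of -1.80 ± 0.18 (adjusted p = 2.58e-05). Elk3 (ENSMUSG00000008398), an ETS transcription factor, was raised by FoxOi (0.88 ± 0.12 (adjusted p = 2.83e-05)), lay lower with loperamide (-0.57 ± 0.12 (adjusted p = 0.00209)) and lowest with both (-1.83 ± 0.12 (adjusted p = 3.23e-08)), with an interaction of -2.14 ± 0.17 (adjusted p = 1.02e-05). Lgi2 (ENSMUSG00000039252), a secreted neuronal protein gene, was raised by FoxOi from 17.6, 19.98 and 22.2 CPM to 80.3, 85.8 and 114 CPM. With both compounds it was at 10.1, 11.3 and 12.6 CPM, below all DMSO libraries, and the interaction was -2.70 ± 0.22 (adjusted p = 1.17e-05).

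Several of the largest negative values belong to genes that 1 compound raised and the other returned to or below the DMSO level. Serinc2 was at 1.47, 1.31 and 1.54 CPM in DMSO, 18.5, 19.2 and 26.4 with FoxOi, 0.652, 1.22 and 0.647 with loperamide and 0.707, 0.438 and 0.793 with both. It was high in the FoxOi libraries only, and its interaction was -4.27 ± 0.45 (adjusted p = 5.31e-05). Sphk1, the gene for sphingosine kinase, was high in the loperamide libraries only, at 1.28, 0.996 and 0.587 CPM in DMSO, 0.581, 0.714 and 0.307 with FoxOi, 11.9, 7.60 and 6.54 with loperamide and at most 0.305 with both, with an interaction of -4.28 ± 0.64 (adjusted p = 0.000638). Pla2g5, a secreted phospholipase gene, had 241 counts in the FoxOi libraries together, against 6 in DMSO, 5 with loperamide and 0 with both, so no fold is given.

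**Figure D2:**
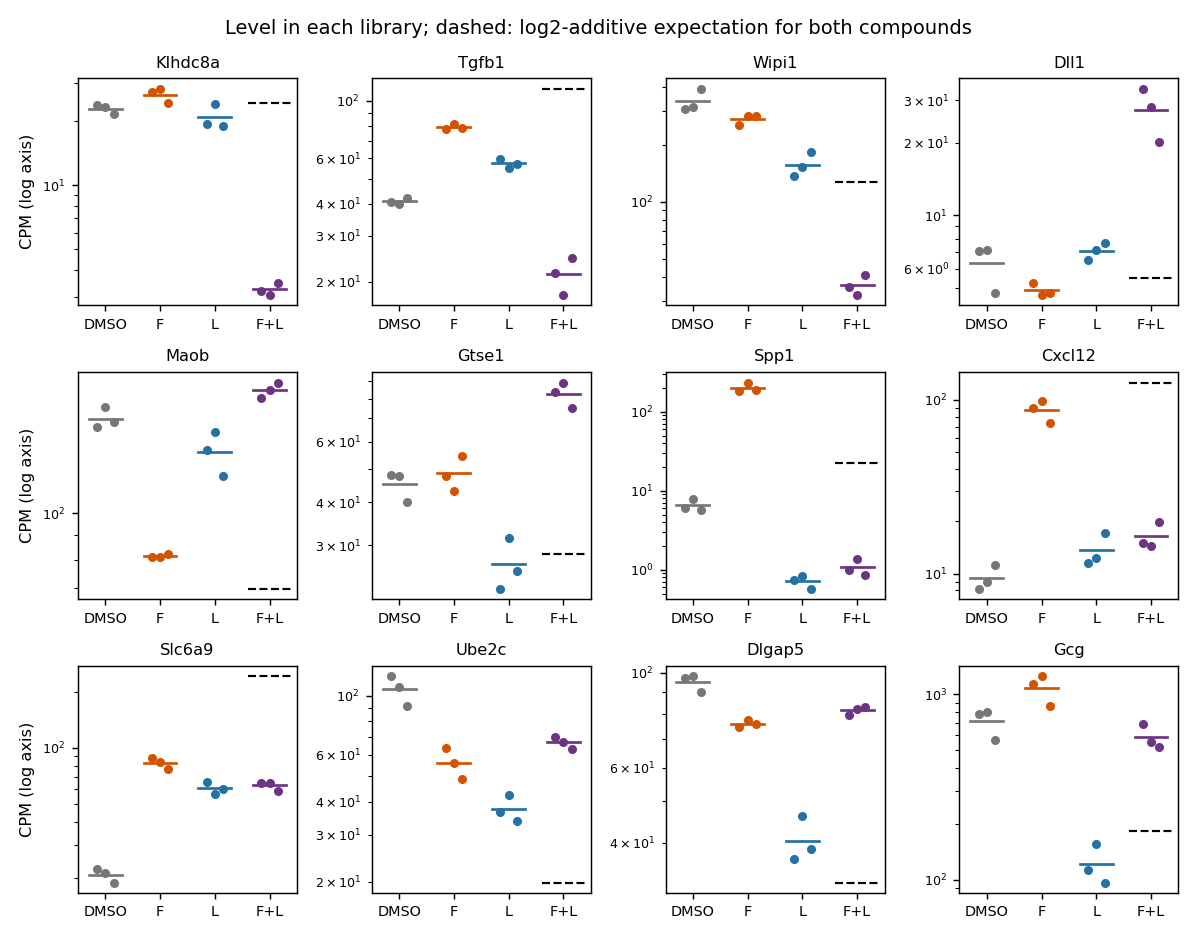
Level of 12 genes in each library (points; bars are group means; CPM on a log axis) with DMSO, FoxOi (F), loperamide (L) and both (F+L), and the level that the product of the single effects gives (dashed). Klhdc8a, Tgfb1 and Wipi1 lie below their expected levels with both compounds, Dll1 and Gtse1 above, and Ube2c and Dlgap5 above their expected levels while not above DMSO.

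Synergistic rises were fewer than synergistic falls. Dll1 (ENSMUSG00000014773, chr17:15367354-15376872, minus strand), a ligand of the Notch receptors, was at 7.10, 7.16 and 4.77 CPM in DMSO, 5.23, 4.67 and 4.77 with FoxOi, 6.52, 7.14 and 7.69 with loperamide and 33.5, 28.0 and 20.1 with both. The 3 combination libraries lay above all others, with a spread among themselves of 20.1 to 33.5 CPM. Neither FoxOi (-0.38 ± 0.20 (adjusted p = 0.147)) nor loperamide (0.16 ± 0.20 (adjusted p = 0.575)) was called, the combination lay at 2.09 ± 0.19 (adjusted p = 4.35e-07) against DMSO, and the interaction was 2.31 ± 0.27 (adjusted p = 0.000108). Of the 14 genes of the Notch list, 3 were called (21.4%, against 9.48% of all genes): Dll1, Notch1 (interaction 0.71 ± 0.20 (adjusted p = 0.0399), a call lost without any 1 of 10 libraries) and Jag1, another ligand, with -1.59 ± 0.35 (adjusted p = 0.00896). Jag1 was an antagonised rise, so the 2 ligands had interactions of opposite sign.

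Diras2 (ENSMUSG00000047842), a Ras-like small G protein gene, was at 12.3, 12.6 and 18.3 CPM in DMSO, 10.4, 12.3 and 12.6 with FoxOi, 10.9, 9.50 and 11.6 with loperamide and 24.8, 28.1 and 27.9 with both. The combination libraries were the highest, and the interaction was 1.62 ± 0.21 (adjusted p = 0.000252). Gtse1 (ENSMUSG00000022385, chr15:85859745-85876573, plus strand), which encodes a protein of the G2 and S phases that binds p53, was at 48.0, 47.8 and 40.2 CPM in DMSO, 47.7, 43.0 and 54.7 with FoxOi, 22.5, 31.6 and 25.3 with loperamide and 83.4, 89.0 and 75.3 with both. It was lowest with loperamide alone and highest with both, without overlap between the combination and any other group, and its interaction was 1.54 ± 0.18 (adjusted p = 0.000104). Slc7a2 (ENSMUSG00000031596), an arginine and lysine transporter that is also a marker of alpha cells, lay lower with FoxOi (-0.89 ± 0.15), higher with loperamide (0.70 ± 0.15) and highest with both (1.32 ± 0.15), with an interaction of 1.51 ± 0.22 (adjusted p = 0.000524). Dpp10 (ENSMUSG00000036815), an accessory subunit of potassium channels, had the same order of groups and an interaction of 1.70 ± 0.28 (adjusted p = 0.00137). Maob (ENSMUSG00000040147), the gene for monoamine oxidase B, was lowered by FoxOi alone from 150.4, 165 and 154 CPM to 81.3, 81.4 and 82.3 CPM, and was at 173, 179 and 186 CPM with both. The combination was not called against DMSO (0.20 ± 0.08 (adjusted p = 0.0701)), and the interaction was 1.36 ± 0.12 (adjusted p = 1.49e-05).

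**Figure D3:**
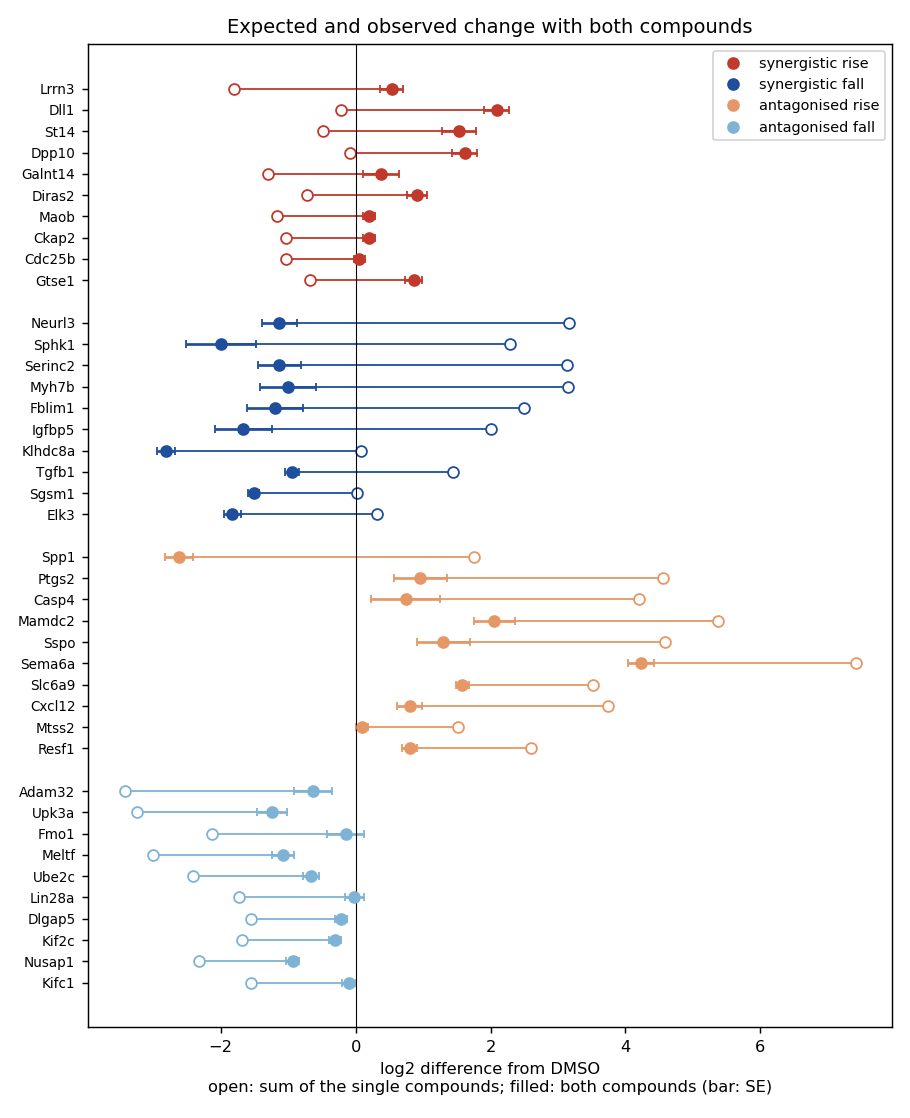
For the 10 genes that the naming rule takes from each class, the sum of the single log2 effects (open) and the observed log2 difference of FoxOi_Loperamide from DMSO (filled, bar: SE). Klhdc8a lies at -2.81 where the sum is 0.08, and Ube2c at -0.66 where the sum is -2.41.

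The mitosis genes formed the most uniform group. All 25 listed genes of mitosis and the G2/M transition were called with a positive interaction, against 3.66% of all genes tested, and all 25 were antagonised falls. The list median of the interaction was 1.27, with a range of 0.90 to 1.75, against a median of -0.02 over all genes. Loperamide alone lowered 25 of 25 (lower in 15.8% of all genes) and FoxOi alone 22 of 25 (20.3%), with list medians of -1.002 and -0.60. The sum of the single effects had a median of -1.68, and the combination lay at a median of -0.41 against DMSO. Added to FoxOi, loperamide lowered none of the 25 (lower in 15.1% of all genes) and raised 5 (higher in 11.5%). Added to loperamide, FoxOi lowered none (lower in 20.5% of all genes) and raised 20 (higher in 18.4%). With both compounds 17 of the 25 were still called below DMSO (lower in 23.2% of all genes) and none above. All 25 calls were kept in each of the 12 fits without 1 library.

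Ube2c (ENSMUSG00000001403, chr2:164769898-164778822, plus strand), the ubiquitin-conjugating enzyme of the anaphase-promoting complex, was at 118.2, 108 and 91.5 CPM in DMSO, 63.5, 55.7 and 48.6 with FoxOi, 36.4, 42.5 and 33.9 with loperamide and 70.1, 67.1 and 63.2 with both. DMSO was highest and loperamide lowest, and the combination lay above the loperamide libraries and overlapped those with FoxOi. Loperamide alone lowered Ube2c by 1.49 ± 0.12 (adjusted p = 7.81e-07), while added to FoxOi it was at 0.26 ± 0.12 (adjusted p = 0.13), which gives an interaction of 1.75 ± 0.17 (adjusted p = 2.48e-05). Dlgap5 (ENSMUSG00000037544), a spindle assembly factor, was at 97.2, 98.0 and 90.0 CPM in DMSO, 74.6, 77.3 and 75.7 with FoxOi, 36.7, 46.2 and 38.7 with loperamide and 79.5, 82.3 and 83.2 with both. The combination lay above both single compounds and below DMSO in every library, and the interaction was 1.34 ± 0.12 (adjusted p = 2.04e-05). Nusap1 (ENSMUSG00000027306, chr2:119618298-119651244, plus strand), a spindle microtubule protein gene, was at 66.7, 70.9 and 70.4 CPM in DMSO, 24.8, 26.6 and 25.1 with FoxOi, 33.6, 40.7 and 38.5 with loperamide and 33.4, 39.9 and 35.4 with both. For this gene FoxOi gave the lowest libraries and the combination overlapped loperamide, with an interaction of 1.39 ± 0.13 (adjusted p = 2.48e-05). Tpx2, which activates Aurora A on the spindle, had an interaction of 1.199 ± 0.13 (adjusted p = 4.6e-05). Kif2c and Kifc1, both kinesins outside the list, were also antagonised falls, at 1.39 ± 0.13 (adjusted p = 2.27e-05) and 1.45 ± 0.14 (adjusted p = 2.82e-05).

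Of the 28 genes of DNA replication, 3 were called (2 positive, 1 negative), which is 10.7% against 9.48% of all genes, with a list median of 0.13. Loperamide alone lowered 12 of the 28 (15.8% of all genes). Tk1 (ENSMUSG00000025574), the thymidine kinase of S phase, was not called with either compound alone, was at 0.44 ± 0.15 (adjusted p = 0.0248) with both against DMSO and had an interaction of 1.11 ± 0.21 (adjusted p = 0.0037). Tyms, the thymidylate synthase, was called at 0.69 ± 0.17 (adjusted p = 0.0214), and this call was lost without DMSO replicate 2, among other libraries. The list had 1 to 4 calls in the fits without 1 library, with 1 called without DMSO replicate 2.

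**Figure D4:**
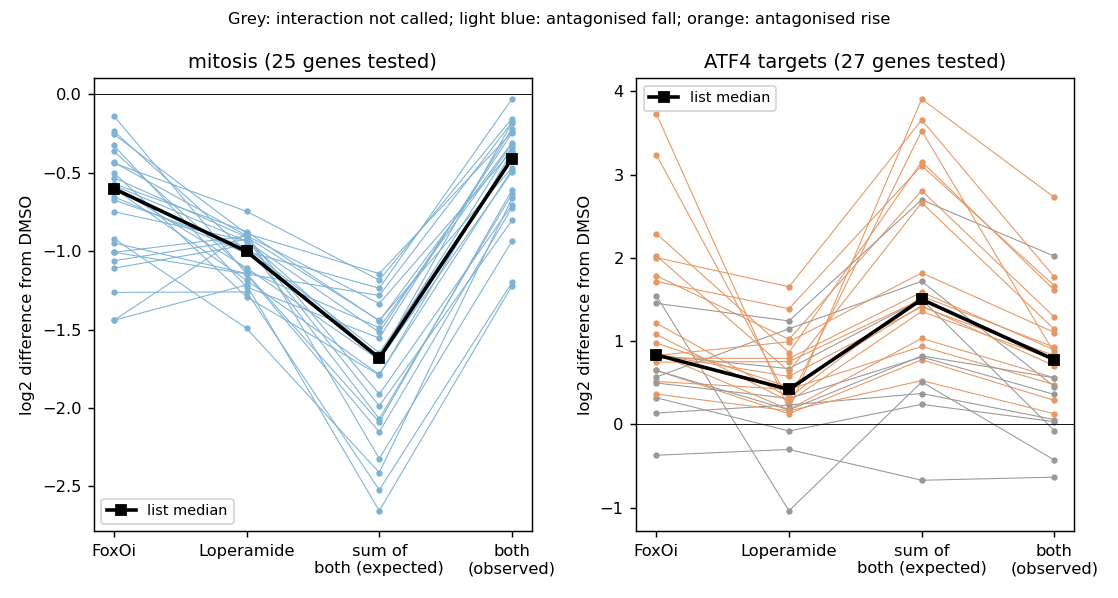
Log2 difference from DMSO of the 25 mitosis genes (left) and the 27 ATF4 targets (right) tested, with FoxOi, with loperamide, as the sum of both, and as observed with both; thin lines are genes and the thick black line is the list median. The mitosis median goes from a sum of -1.68 to an observed -0.41, and the ATF4 median from 1.501 to 0.78.

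The promoters of the mitosis genes and of the ATF4 targets are shown for 4 members, since both groups moved together. The sequences are the 250 bases upstream of the annotated start in RefSeq on GRCm38.p6, read 5′ to 3′ on the strand of the gene, and capitals mark 3 of the motifs searched on both strands: CCAAT boxes, the cell cycle homology region and the C/EBP-ATF element. In Ube2c (chr2:164769679-164769928, plus strand) they mark CCAAT boxes (CCAAT, or ATTGG on the other strand, of which 2 overlap) and 1 cell cycle homology region (CHR, TTTGAA or TTCAAA). In Nusap1 (chr2:119618048-119618297, plus strand) none of these 3 motifs was found, nor in Ppp1r15a (chr7:45526269-45526518, minus strand). In Nupr1 (chr7:126625471-126625720, minus strand) capitals mark a C/EBP-ATF element (TGATGCAAT or ATTGCATCA), the composite site that ATF4 is known to use. Other motifs searched are not in capitals: Ppp1r15a holds the CRE letters TGACGTCA and Nupr1 the E-box letters CACGTG.
Ube2c: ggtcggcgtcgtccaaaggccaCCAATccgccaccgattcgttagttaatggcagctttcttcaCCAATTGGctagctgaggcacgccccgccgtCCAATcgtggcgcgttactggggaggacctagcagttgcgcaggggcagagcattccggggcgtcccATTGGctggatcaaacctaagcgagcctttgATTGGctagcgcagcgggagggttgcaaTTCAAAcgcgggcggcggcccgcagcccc
Nusap1: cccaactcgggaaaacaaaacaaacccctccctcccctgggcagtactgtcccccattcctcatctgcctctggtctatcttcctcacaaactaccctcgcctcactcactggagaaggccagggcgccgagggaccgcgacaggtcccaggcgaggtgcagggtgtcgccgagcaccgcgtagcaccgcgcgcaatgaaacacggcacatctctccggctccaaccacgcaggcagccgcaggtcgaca
Nupr1: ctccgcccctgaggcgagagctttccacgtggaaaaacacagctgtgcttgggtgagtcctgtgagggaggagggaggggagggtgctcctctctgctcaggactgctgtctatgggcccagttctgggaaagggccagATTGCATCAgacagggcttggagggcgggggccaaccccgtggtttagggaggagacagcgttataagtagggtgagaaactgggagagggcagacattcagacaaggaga
Ppp1r15a: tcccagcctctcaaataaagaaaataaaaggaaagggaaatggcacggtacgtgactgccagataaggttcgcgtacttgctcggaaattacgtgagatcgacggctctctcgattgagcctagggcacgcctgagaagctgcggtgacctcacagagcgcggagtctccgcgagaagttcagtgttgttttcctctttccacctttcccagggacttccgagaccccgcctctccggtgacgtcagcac

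CCAAT boxes stood in 19 of the 21 promoters found for 20 of the 25 mitosis genes (90.5%), against 35.6% of the promoters of the genes tested, 33.8% of all 32851 promoters in the table and 53% of the promoters of antagonised falls. The CHR letters were in 8 of the 21 (38.1%), against 10.7% for the genes tested and 16% of all promoters. Of the 26 promoters of ATF4 targets, CCAAT boxes stood in 13 (50%) and the CHR letters in 1 (3.85%). The CCAAT and CHR motifs were chosen after the data were seen. The C/EBP-ATF letters were in 3 of 26 promoters of ATF4 targets (11.5%), against 0.108% for the genes tested and 0.167% of all promoters. The CRE letters were in 1 of these 26 (3.85%), against 2.59% for the genes tested. The forkhead letters GTAAACA, which FoxO factors bind, were in 1.7% to 2.91% of the promoters of the 4 interaction classes, against 2.26% of the promoters of the genes tested and 3.17% of all. The E-box letters CACGTG were in 10.9% of the promoters of antagonised rises and 11.5% of those of ATF4 targets (3 of 26), against 8.22% of those of the genes tested. They were in 5.35% to 6.36% of the promoters of the other classes and 4.76% of those of mitosis genes. The AP-1 letters TGANTCA were in 4.55% to 7.21% of the promoters of the 4 classes, against 4.35% for the genes tested. They were in 3.85% of those of ATF4 targets and 0% of those of mitosis genes. A match describes the letters in these windows and shows no binding.

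Targets of ATF4, the transcription factor of the integrated stress response, deviated in the other direction. Of the 27 tested, 18 were called, all 18 with a negative interaction (5.82% of all genes) and all 18 as antagonised rises. FoxOi alone raised 23 of the 27 (higher in 20.7% of all genes) and lowered 1, and loperamide alone raised 14 (16.1%) and lowered 2. Loperamide added to FoxOi raised 1 (higher in 11.5% of all genes) and lowered 9 (lower in 15.1%). FoxOi added to loperamide raised 9 (higher in 18.4% of all genes) and lowered 1 (lower in 20.5%). With both compounds 19 of the 27 were still called above DMSO (higher in 22.3% of all genes) and 1 below (lower in 23.2%). The list median of the interaction was -0.69, with 1.501 for the sum of the single effects and 0.78 for the combination. The number called was 9 without DMSO replicate 2 and 11 without FoxOi replicate 1, and 12 to 18 without any other library, all negative. Atf4 itself, named after its values were seen, was not called, at -0.45 ± 0.23 (adjusted p = 0.26).

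Nupr1 (ENSMUSG00000030717, chr7:126623249-126630861, minus strand), a stress-induced chromatin protein gene, was at 16.7, 10.6 and 9.02 CPM in DMSO, 135, 115 and 94.8 with FoxOi, 15.8, 15.9 and 12.9 with loperamide and 27.7, 20.3 and 18.1 with both. FoxOi alone stood above every other library. FoxOi raised Nupr1 by 3.24 ± 0.23 (adjusted p = 2.33e-07) alone, against 0.57 ± 0.22 (adjusted p = 0.0609) in the presence of loperamide, an interaction of -2.67 ± 0.31 (adjusted p = 0.000212). Ppp1r15a (ENSMUSG00000040435, chr7:45522916-45526268, minus strand), the phosphatase subunit that reverses eIF2alpha phosphorylation, was at 77.9, 63.6 and 51.7 CPM in DMSO, 279, 276 and 232 with FoxOi, 117.5, 95.6 and 87.8 with loperamide and 171, 143 and 112 with both. The combination lay between loperamide and FoxOi, overlapping loperamide, and the interaction was -1.52 ± 0.24 (adjusted p = 0.00126). Slc7a11 (ENSMUSG00000027737), the cystine transporter, and Cebpb (ENSMUSG00000056501), a partner of ATF4, had interactions of -1.54 ± 0.27 (adjusted p = 0.00255) and -1.52 ± 0.27 (adjusted p = 0.00232).

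Spp1 (ENSMUSG00000029304, chr5:104435118-104441050, plus strand), which encodes osteopontin, was at 6.14, 7.78 and 5.72 CPM in DMSO, 182, 235 and 189 with FoxOi, 0.746, 0.836 and 0.575 with loperamide and 0.979, 1.38 and 0.854 with both. FoxOi raised Spp1 by 4.94 ± 0.15 in the absence of loperamide, and the FoxOi effect with loperamide present was 0.57 ± 0.32 (adjusted p = 0.177). The combination lay below every DMSO library, and the interaction was -4.37 ± 0.41 (adjusted p = 2.14e-05). Spp1 is also expressed by macrophages and duct cells. The macrophage and leukocyte sums given above reached no higher with FoxOi than in DMSO and were lowest with both compounds. The ductal sums, which include Spp1 itself, ranged higher with FoxOi than in DMSO, with overlap. Spp1 made up 182 to 235 CPM of them with FoxOi and 5.72 to 7.78 CPM in DMSO. The other ductal genes together lay lower with FoxOi than in DMSO. The part of macrophages and duct cells in this result was not tested.

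Cxcl12 (ENSMUSG00000061353, chr6:117168535-117181367, plus strand), a chemokine and one of the genes that mature beta cells keep silent, was at 8.18, 8.96 and 11.2 CPM in DMSO, 89.6, 99.0 and 73.6 with FoxOi, 11.5, 12.2 and 17.1 with loperamide and 14.96, 14.5 and 19.8 with both. FoxOi alone stood apart, and the combination overlapped the loperamide libraries. Loperamide raised Cxcl12 from its DMSO level (0.54 ± 0.19 (adjusted p = 0.0417)) and lowered it from its FoxOi level (-2.41 ± 0.17 (adjusted p = 1.56e-07)), with an interaction of -2.95 ± 0.25 (adjusted p = 1.49e-05). Ptgs2, the gene for cyclooxygenase-2, and Areg, a ligand of the EGF receptor, were raised by FoxOi by 4.40 ± 0.31 and 8.39 ± 0.21, with interactions of -3.59 ± 0.56 (adjusted p = 0.000884) and -3.19 ± 0.69 (adjusted p = 0.00857). With both compounds Areg was at 8.16 CPM or less, against 122, 168 and 117.95 CPM with FoxOi and at most 0.587 CPM in DMSO. At that DMSO level the size of its FoxOi effect is less certain than the SE shows.

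Slc6a9 (ENSMUSG00000028542, chr4:117834506-117875198, plus strand), a glycine transporter, was at 22.4, 21.5 and 19.0 CPM in DMSO, 87.8, 83.7 and 77.3 with FoxOi, 65.9, 56.8 and 60.2 with loperamide and 65.2, 64.7 and 58.7 with both. All treated libraries lay above DMSO, and the combination overlapped loperamide. The product of the single effects is 241 CPM, the combination's mean was 62.9 CPM, and the interaction was -1.94 ± 0.13 (adjusted p = 2.36e-06). Sema6a (ENSMUSG00000019647), a semaphorin, was raised by 3.68 ± 0.19 with FoxOi, 3.74 ± 0.19 with loperamide and 4.23 ± 0.19 with both, an interaction of -3.19 ± 0.25 (adjusted p = 1.17e-05). In Mtss2 (ENSMUSG00000033763), an actin-binding protein gene, the rise was undone: it rose with loperamide alone, from 61.4, 49.8 and 53.9 CPM in DMSO to 141, 137 and 149.8 CPM. With both it was at 61.1, 55.3 and 59.8 CPM, which overlapped DMSO, and the interaction was -1.42 ± 0.12 (adjusted p = 1.49e-05).

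Over the whole class of 596 antagonised rises, 504 genes were called higher with FoxOi. For 270 of these adding loperamide gave a called decrease (15.1% of all genes), after which 143 were still above DMSO, 116 were not called against it and 11 were below. Loperamide alone had raised 399, and adding FoxOi gave a called decrease in 132 (20.5% of all genes). Of the 397 antagonised falls, loperamide alone had lowered 313, with a called increase in 176 when FoxOi was added (18.4% of all genes). FoxOi had lowered 300, with a called increase in 119 when loperamide was added (11.5% of all genes). The classes were defined on these same libraries, so these counts are a description.

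Some transcription factors of beta cell identity were antagonised falls. Of 16 tested, 5 were called, all positive (3.66% of all genes), and 5 or 6 in each fit without 1 library. Mafa (ENSMUSG00000047591, chr15:75745490-75748228, minus strand), an activator of insulin transcription, was at 805, 846 and 782 CPM in DMSO, 90.8, 107 and 62.3 with FoxOi, 764, 819 and 699.8 with loperamide and 162, 171 and 179.8 with both. FoxOi gave the lowest libraries, the combination lay above them without overlap, and loperamide overlapped DMSO. FoxOi lowered Mafa by 3.23 ± 0.15 alone and by 2.15 ± 0.15 in the presence of loperamide, an interaction of 1.07 ± 0.20 (adjusted p = 0.00331). Pdx1, a factor for pancreas development and insulin transcription, Pax6 and Isl1, both required for endocrine cells, had interactions of 0.64 ± 0.12 (adjusted p = 0.00251), 0.56 ± 0.10 (adjusted p = 0.00234) and 0.44 ± 0.10 (adjusted p = 0.00868). The fifth, Rfx6, named after its values were seen, was at 0.56 ± 0.13 (adjusted p = 0.0121). The list median was 0.04, near that of all genes, and Nkx6-1 was at 0.20 ± 0.16 (adjusted p = 0.511). Loperamide alone raised 5 of the 16 (higher in 16.1% of all genes) and lowered 2 (lower in 15.8%). Added to FoxOi, loperamide raised 10 (higher in 11.5% of all genes) and lowered 3 (lower in 15.1%). FoxOi lowered 12 of the 16 alone (20.3% of all genes) and 14 in the presence of loperamide (20.5%). With both compounds 11 lay below DMSO (23.2% of all genes).

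The insulin genes did not pass the test of the interaction, with Ins1 at 0.23 ± 0.19 (adjusted p = 0.52) and Ins2 at 0.17 ± 0.18 (adjusted p = 0.648), and neither did Pcsk1, a proinsulin convertase (0.16 ± 0.13 (adjusted p = 0.506)), Slc2a2, the glucose transporter (0.76 ± 0.47 (adjusted p = 0.366)), Ucn3, a marker of mature beta cells (-0.92 ± 0.31 (adjusted p = 0.0829)), or Foxo1 (0.30 ± 0.15 (adjusted p = 0.245)). Ucn3 was called without FoxOi replicate 3 (adjusted p = 0.0395) or FoxOi_Loperamide replicate 1 (adjusted p = 0.0437), and with no filter (adjusted p = 0.0191). With the replicate number added to the fit as a block, both Ucn3 (adjusted p = 0.00627) and Foxo1 (adjusted p = 0.0397) were called. A p above the threshold does not show that the effects multiplied. Gcg (ENSMUSG00000000394, chr2:62474530-62483650, minus strand), the glucagon gene, was at 778, 807 and 567 CPM in DMSO, 1134, 1249.6 and 868 with FoxOi, 112, 156 and 96.5 with loperamide and 690.2, 549.6 and 519 with both. Loperamide gave the lowest libraries, and the combination overlapped DMSO. Loperamide lowered Gcg by 2.56 ± 0.21 alone and by 0.89 ± 0.20 added to FoxOi, an interaction of 1.68 ± 0.28 (adjusted p = 0.00219). Of the 9 alpha cell markers tested, 4 were called, all positive (3.66% of all genes): Gcg, Slc7a2, Slc38a5 (0.49 ± 0.10 (adjusted p = 0.00726)) and Ttr (1.29 ± 0.33 (adjusted p = 0.0325), a call lost without any 1 of 7 libraries).

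Of 25 genes of glucose sensing and exocytosis, 3 were called positive (3.66% of all genes) and 6 negative (5.82%). The receptor Glp1r (0.64 ± 0.11 (adjusted p = 0.0014)) and Mdh1, a malate dehydrogenase (0.70 ± 0.12 (adjusted p = 0.00197)), were antagonised falls. Syt7, a calcium sensor of exocytosis, had a negative value (-0.72 ± 0.13 (adjusted p = 0.00209)). Of 18 genes of insulin processing and granules 2 were called (11.1%, near the 9.48% of all genes), both named after their values were seen and both synergistic falls. Iapp, the amyloid polypeptide secreted with insulin, had an interaction of -0.78 ± 0.13 (adjusted p = 0.00158), and Pam, which amidates peptides, had -0.72 ± 0.17 (adjusted p = 0.0164). Of 23 calcium and potassium channels, 4 were called, all negative (5.82% of all genes), among them Kcnh2 and Ryr2, the calcium release channel (-1.71 ± 0.30 (adjusted p = 0.00227)).

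**Figure D5:**
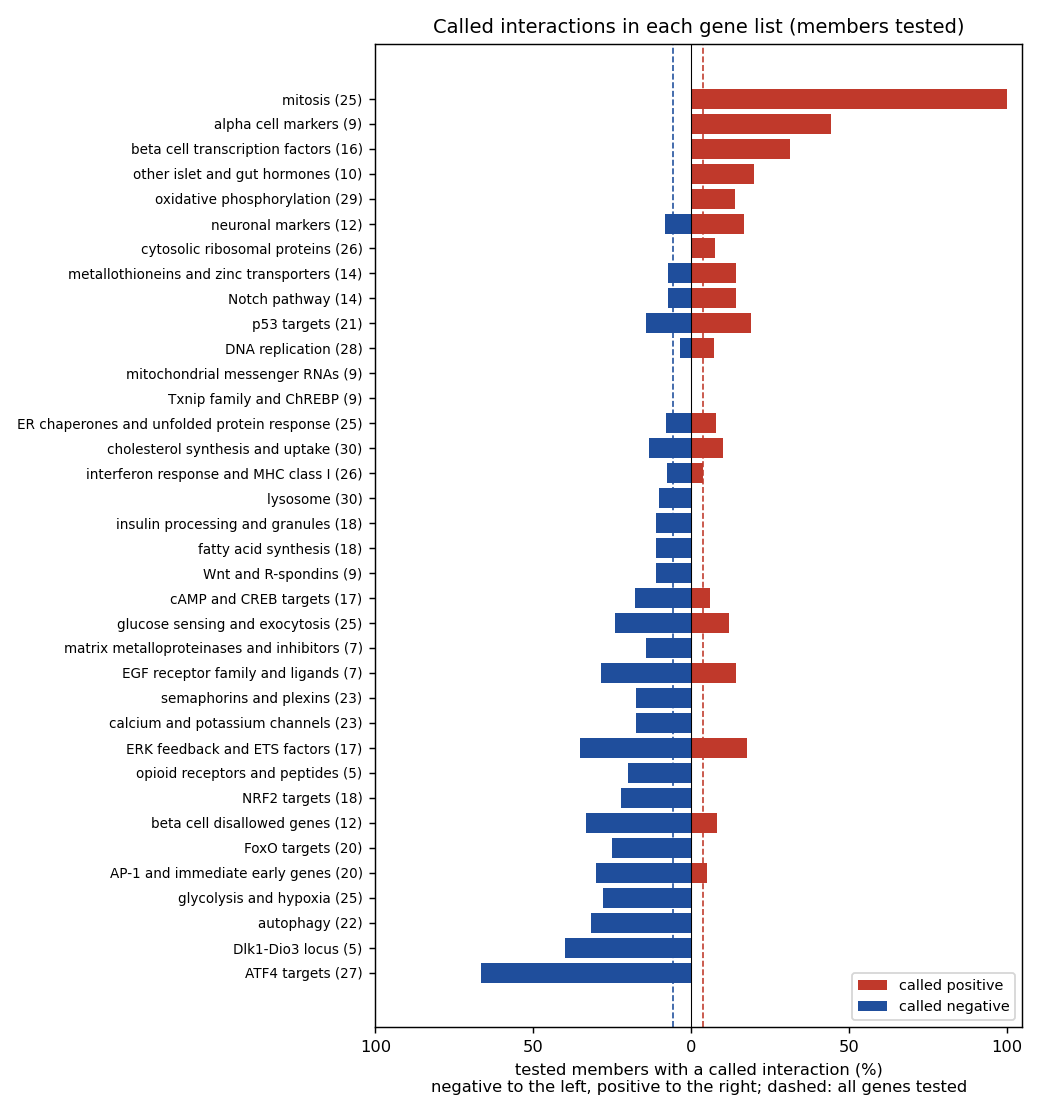
Share of tested members with a called interaction in each list of at least 5 tested genes (number in brackets), positive to the right and negative to the left; dashed lines mark all genes tested, 3.66% and 5.82%. Mitosis is at 100% positive and the ATF4 targets at 66.7% negative.

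Known FoxO targets had 5 calls among 20 tested, all negative (5.82% of all genes). Fbxo32 (ENSMUSG00000022358), a muscle-wasting ubiquitin ligase that FoxO factors induce, was at 10.996, 12.2 and 13.0 CPM in DMSO, 7.43, 6.42 and 8.61 with FoxOi, 34.3, 25.8 and 33.6 with loperamide and 6.37, 6.38 and 7.44 with both. It was high only in the loperamide libraries. Loperamide raised Fbxo32 by 1.37 ± 0.14 alone and was at -0.16 ± 0.15 (adjusted p = 0.49) in the presence of FoxOi, an interaction of -1.53 ± 0.20 (adjusted p = 0.000278). Mxi1, an antagonist of Myc, and Ccng2, a cyclin of growth arrest, gave -1.02 ± 0.13 (adjusted p = 0.000243) and -0.99 ± 0.20 (adjusted p = 0.00547) and were likewise raised by loperamide alone, by 1.197 ± 0.09 and 0.79 ± 0.14. Klf6, a zinc finger factor, was instead raised by FoxOi (2.03 ± 0.15) and had an interaction of -1.03 ± 0.21 (adjusted p = 0.00613). Loperamide alone raised 11 of the 20 (16.1% of all genes) and lowered none, and added to FoxOi it raised 4 (11.5% of all genes) and lowered 2 (15.1%).

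Genes that respond to ERK and growth signals had many calls of both signs. Of the 17 ERK feedback and ETS genes 9 were called, 6 negative (5.82% of all genes) and 3 positive (3.66%). Dusp4 (ENSMUSG00000031530), a phosphatase that turns off ERK, was at 89.8, 113 and 164 CPM in DMSO, 296, 362 and 430.3 with FoxOi, 45.4, 46.6 and 80.1 with loperamide and 29.2, 30.2 and 40.3 with both. FoxOi gave the highest libraries, and the combination lay below all others. Its interaction was -2.36 ± 0.38 (adjusted p = 0.00232). Etv5, an ETS factor, was at -1.25 ± 0.23 (adjusted p = 0.00285), and Phlda1, a feedback inhibitor of growth factor signalling, at 1.01 ± 0.16 (adjusted p = 0.000884). Egr1 (ENSMUSG00000038418), an immediate early factor, had a positive interaction of 1.30 ± 0.22 (adjusted p = 0.00209): FoxOi lowered it by 1.70 ± 0.16 alone, and with both it was at 0.09 ± 0.16 (adjusted p = 0.683) against DMSO. Of the 20 AP-1 and immediate early genes, a list that shares Egr1 and Ier3 with the former, 6 were called negative and 1 positive (5.82% and 3.66% of all genes). Maff, a small Maf factor, had -1.65 ± 0.18 (adjusted p = 5.55e-05), and Jun -0.76 ± 0.18 (adjusted p = 0.0126).

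Glycolysis and hypoxia genes had 7 calls among 25, all antagonised rises (3.55% of all genes), 4 of them left without DMSO replicate 2. Eno2, a neuronal and endocrine enolase, had -1.40 ± 0.17 (adjusted p = 0.000146), Slc2a1, a glucose transporter, -1.04 ± 0.16 (adjusted p = 0.000983), and Ndrg1, a hypoxia-induced gene, -0.90 ± 0.12 (adjusted p = 0.000337). Autophagy genes had 7 calls among 22, all negative (5.82% of all genes) and also 4 without DMSO replicate 2. Besides Wipi1 they included Gabarapl1 (-0.84 ± 0.14 (adjusted p = 0.00147)) and Sqstm1 (-0.90 ± 0.19 (adjusted p = 0.0063)), which encode a membrane tag and a cargo receptor. Of 30 cholesterol genes 7 were called, 4 negative (5.82% of all genes) and 3 positive (3.66%), with 4 in all without DMSO replicate 2. Msmo1, a sterol oxidase of the pathway, had -1.200 ± 0.16 (adjusted p = 0.000255), and Dhcr7, its last reductase, 0.64 ± 0.13 (adjusted p = 0.00473). Hmox1, the haem oxygenase of the NRF2 list, had -1.48 ± 0.21 (adjusted p = 0.000526).

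Genes of oxidative phosphorylation had small positive values in 27 of 29 members, of which 4 were called (3.66% of all genes), with a list median of 0.27. The number called was 3 to 8 without 1 library, with 8 without DMSO replicate 3 or FoxOi replicate 1. Atp5b, the catalytic subunit of ATP synthase, had 0.55 ± 0.10 (adjusted p = 0.00341), and Ndufa1, of complex I, 0.75 ± 0.14 (adjusted p = 0.00299). Ribosomal protein genes had a positive sign in 26 of 26, with 2 called (7.69%, against 9.48% of all genes) and a median of 0.28. There were 6 calls without DMSO replicate 3, 5 without FoxOi replicate 1, 1 without any other library and 9 with no filter. Over all genes tested the sign was positive in 7991 of 16808.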

How the data were processed

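RNA of 12 Min6 libraries was sequenced as stranded mRNA libraries with single reads of 50 bases, per the labels' protocols. The authors deposited raw counts per gene and FPKM values for the same libraries. The submitters' processing notes name GRCm38 and mm10 as builds and DESeq2, Picard 2.19.2 and STAR 2.7.5a as tools. How reads were counted, and with which strand setting, is not given in the sources used here. Without the strand setting, reads of overlapping antisense genes may not be told apart. The deposited FPKM values are the counts over gene length and a library factor within 0.226% of DESeq2's size factors (11568 genes checked).

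The raw counts were tested with edgeR 4.0.16 (R 4.3.3): filterByExpr by group (minimum count 10, minimum total 15), TMM scaling, and the quasi-likelihood F test with robust dispersion and the group as the only term in all 12 libraries. The threshold for a call was an adjusted p (Benjamini-Hochberg over 16808 genes) of 0.05. The SE is the absolute log2 change divided by the square root of F (prior count 0.125), and it can be too small where a group has few counts. CPM are per 1000000 of the TMM-scaled library. Chi-square per degree of freedom between libraries of a group was 5.09 to 32.1, so none was a copy of another. The scripts were tested on simulated data.

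Genes were grouped in 40 lists, with 632 of 734 genes tested. The members and lists were chosen with earlier results of these data known. Named are 10 fixed beta cell genes, 10 genes of each class by size and then by adjusted p (mean of at least 1 CPM, at least 10 counts in each group), genes called with 0 counts over a group, the 4 sign-changing genes of each kind and the 4 genes called only with both compounds that had the smallest adjusted p, and up to 4 called members of each list with at least 3. Genes outside this rule are marked in the text. Some genes that the rule takes are not reported here.

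Alternatives were other size factors, DESeq2 1.42.0, no filter and a stricter one (30 counts in 3 libraries), limma 3.58.1 on log2(FPKM + 1) and log2(FPKM + 0.1), a replicate block, the linear scale, the stricter classes, and leaving out each library.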

Additional observations from a re-analysis of the deposited data

How the results depend on the processing

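The 1594 called interactions became 1603 with DESeq2's size factors in edgeR, 1964 with DESeq2, 2042 with no filter, 1594 with the stricter filter, 1697 and 1579 with limma on log2(FPKM + 1) and log2(FPKM + 0.1), and 88.5% or more of the 1594 were shared with each of these, all with the same sign. Leaving out 1 library gave 1082 (without DMSO replicate 2) to 1894 called genes (without DMSO replicate 3), with 465 to 957 positive, 597 to 937 negative, 161 to 323 synergistic rises, 232 to 354 synergistic falls, 365 to 591 antagonised rises, 301 to 634 antagonised falls, 125 to 213 genes with a sign change of the loperamide effect, 156 to 236 with one of the FoxOi effect and 69 to 123 called only with both. The lowest negative, synergistic fall and antagonised rise counts (597, 232 and 365) came without DMSO replicate 2, the highest positive and antagonised fall counts (957 and 634) without DMSO replicate 3, and the 125 without DMSO replicate 2 or FoxOi_Loperamide replicate 2. With no filter there were 351 synergistic rises. Under the stricter definitions there were 80 synergistic rises, 187 synergistic falls and 387 antagonised rises. The cause was not tested beyond the fewer samples or the narrower definition.

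With a replicate block, 4334 genes were called, 1920 positive and 2414 negative, in 705 synergistic rises, 856 synergistic falls, 1558 antagonised rises and 1215 antagonised falls, with 630 and 525 sign changes of the loperamide and FoxOi effects and 195 genes called only with both. It shared 1593 of the 1594 genes. Libraries of the same number had deviations that correlated at 0.09 to 0.51, above 0.1 in 17 of 18 pairs, and all 12 libraries correlated best with their own number. The descriptions in the labels also carry a code that libraries of the same number share across the 4 groups, and what it stands for is not given in the sources used here. Foxo1 and Ucn3 were called with the block (adjusted p = 0.0397 and 0.00627), and it changed the call of no other gene named by the rule. The block also gave 11 calls among 28 genes of DNA replication, 18 among 29 of oxidative phosphorylation and 17 among 26 ribosomal proteins. Over all genes the same fit called 4334 of 16808, so part of this rise is general.

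Of the 137 genes named by the rule, 130 were called. Of these, 104 kept their call and sign under all 19 alternatives run on single genes, 25 lost the call without at least 1 library, and 0 reversed. Depth limits the genes with few counts: 53 called genes had a mean under 1 CPM, and 3 had 0 counts over a group.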
